A study of Mus musculus with 24 samples.

Results

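The 10 genes described here carry glucose into the cell and break it down to pyruvate: the transporter gene Slc2a1, the hexokinase genes Hk1, Hk2 and Hk3, the phosphofructokinase genes Pfkl and Pfkp, and Aldoa, Pgk1, Pgam1 and Pkm of lower glycolysis. They were found by gene name among the 55487 genes of the deposited table. The name Aldoa stands on 2 rows, so that 11 rows were read in 24 libraries. RNA was sequenced in bulk from macrophages sorted from 4 mouse tissues. Lung gave alveolar macrophages, liver gave Kupffer cells, brain gave microglia and spleen gave splenic macrophages. Each type came from mice of the genotype Z165KO (KO here) and from wildtype (WT) mice, with 3 libraries in each of the 8 groups. Every library was made from the same stated number of sorted cells. The labels do not describe the Z165KO allele, the sort gate, the age or the sex of the mice. Nor do they say whether replicates came from separate mice, so a p-value here reflects only how far these libraries scatter, and that scatter may be technical.

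Glycolysis begins when a glucose transporter lets the sugar cross the membrane and a hexokinase adds a phosphate that holds it inside. Phosphofructokinase then commits the sugar to breakdown, aldolase splits it into trioses, and phosphoglycerate kinase and pyruvate kinase each make ATP, with phosphoglycerate mutase acting between them. Macrophages raise glycolysis when they are activated by microbial signals, and the hypoxia-inducible factors are known inducers of most of these genes. Tissue-resident macrophages live in very different nutrient surroundings, and alveolar macrophages sit in an airspace known to be poor in glucose.

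Total counts per library ran from 50449347 to 65981787, and 15958 to 20646 genes had at least 10 counts in a library. The highest of these gene numbers belonged to 1 WT microglial library, replicate 2, which stood apart from its group also in several of the genes below. The summed defining markers of each type marked its own WT libraries. The alveolar list summed to 20900 to 25820 CPM (counts scaled to the library total) in WT alveolar libraries and to at most 136.9 CPM in the other WT libraries. For the red pulp list the WT splenic libraries held 20850 to 24800 CPM, and at most 7303 CPM was found in other WT libraries, the highest in Kupffer cells. Zeb2, a zinc-finger repressor named in the series title, had 139, 126 and 142 CPM in KO alveolar macrophages, against 297, 282 and 190 CPM in WT alveolar macrophages. These groups did not overlap, but the difference was not called (log2 fold -0.89 ± 0.19 SE, adjusted p = 0.116, edgeR). Zeb2 had log2 folds of -0.04 in Kupffer cells, 0.12 in microglia and 0.09 in splenic macrophages, none of them called. Log2 folds here are KO over WT from edgeR, and a gene is called when its p adjusted over all tested genes is under 0.05.

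The genes lie on 8 chromosomes (GRCm38/mm10, GENCODE vM21). Slc2a1 is at chr4:119108711-119137983 on the plus strand, Hk2 at chr6:82725025-82774454 on the minus strand and Hk1 at chr10:62268855-62379908 on the minus strand. Both Hk3 (chr13:55005985-55021385) and Pfkp (chr13:6579768-6648777) are on the minus strand of chromosome 13, and Pfkl (chr10:77986947-78010083) is on the minus strand of chromosome 10. Aldoa is at chr7:126795234-126800751 on the minus strand, and its second row is a separate annotation on the same strand at chr7:126800790-126809108, which does not overlap the first, with at most 1.15 CPM in any library. Pkm (chr9:59656368-59679375), Pgam1 (chr19:41911923-41918660) and Pgk1 (chrX:106187100-106203699) are on the plus strand. Pfkp overlaps Pitrm1 and Hk3 overlaps Unc5a, each on the opposite strand, and the sources used here do not say whether counting used strand. Pitrm1 averaged 58.6 CPM and Unc5a 28.8 CPM over the 24 libraries, so reads shared with them cannot be told apart.

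The promoters of 5 of the genes are shown. Pfkp, Hk2 and Hk3 had the 3 highest ratios of the highest to the lowest WT type mean, Pfkl is set beside Pfkp as the other phosphofructokinase gene, and Slc2a1 had the largest genotype difference of the 10. The sequences are RefSeq windows of 300 bases on GRCm38.p6, from 250 before to 50 after an annotated start, printed on the strand of the gene. Capitals mark ACGTG or GCGTG, the core letters bound by hypoxia-inducible factors, or their reverse complements CACGT and CACGC.
Slc2a1, chr4:119108495-119108794, plus strand: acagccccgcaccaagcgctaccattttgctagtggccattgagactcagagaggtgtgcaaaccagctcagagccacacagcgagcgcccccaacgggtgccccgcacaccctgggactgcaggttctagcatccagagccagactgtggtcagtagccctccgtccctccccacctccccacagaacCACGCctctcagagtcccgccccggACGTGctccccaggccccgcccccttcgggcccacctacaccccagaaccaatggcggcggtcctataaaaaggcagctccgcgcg
Hk2, chr6:82774405-82774704, minus strand: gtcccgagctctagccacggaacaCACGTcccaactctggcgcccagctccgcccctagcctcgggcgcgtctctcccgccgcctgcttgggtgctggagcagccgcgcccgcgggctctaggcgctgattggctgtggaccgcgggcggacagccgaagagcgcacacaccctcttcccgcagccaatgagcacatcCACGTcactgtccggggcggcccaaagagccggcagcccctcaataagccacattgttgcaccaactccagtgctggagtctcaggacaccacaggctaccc
Hk3, chr13:55021336-55021635, minus strand: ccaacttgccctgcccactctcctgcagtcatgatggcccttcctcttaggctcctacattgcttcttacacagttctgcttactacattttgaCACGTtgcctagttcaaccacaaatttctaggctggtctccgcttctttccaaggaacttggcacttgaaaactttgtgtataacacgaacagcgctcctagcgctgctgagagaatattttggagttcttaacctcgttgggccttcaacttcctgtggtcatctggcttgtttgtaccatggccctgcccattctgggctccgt
Pfkl, chr10:78009758-78010057, minus strand: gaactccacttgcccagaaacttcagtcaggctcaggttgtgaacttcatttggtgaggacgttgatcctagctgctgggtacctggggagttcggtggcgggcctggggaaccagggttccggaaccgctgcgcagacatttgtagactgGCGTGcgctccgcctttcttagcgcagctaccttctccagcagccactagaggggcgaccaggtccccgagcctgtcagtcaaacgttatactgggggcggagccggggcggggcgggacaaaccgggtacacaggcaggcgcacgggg
Pfkp, chr13:6648722-6649021, minus strand: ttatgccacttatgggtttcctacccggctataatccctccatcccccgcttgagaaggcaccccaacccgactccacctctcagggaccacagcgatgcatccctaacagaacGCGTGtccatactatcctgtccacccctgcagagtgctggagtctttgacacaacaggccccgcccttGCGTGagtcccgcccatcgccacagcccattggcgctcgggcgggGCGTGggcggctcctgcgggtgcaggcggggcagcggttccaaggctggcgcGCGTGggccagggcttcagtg

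The 10 genes had 14 such windows in RefSeq, of 32851 windows in the table. ACGTG was found on either strand in 9 of the 14 windows, from 8 genes, and in 19.6% of all windows. GCGTG was found in 5 windows from 5 genes and in 32.4% of all windows. An ACGTG on one strand overlaps itself on the other within CACGTG. The Hk2 window held ACGTG at 2 places, Slc2a1 and Hk3 held it at 1 place each, and Pfkp held GCGTG at 4 places. CACCTG, the E-box letters known for Zeb proteins, was found in 1 window (Hk1) and in 20.2% of all windows. TGCTGA, part of the site known for Maf proteins, was found in windows of Hk1 and Hk3 and in 19.5% of all windows. TATAAA was found in 1 window, that of Slc2a1, and in 13.6% of all windows. GGGCGG, the GC box, was found in 9 windows from 8 genes and in 35.7% of all windows. The Hk3 window had 7 CpG dinucleotides, the median of all windows, whereas the windows of Slc2a1, Pfkl, Pfkp and Hk2 had 18, 20, 21 and 25. A match of letters is a description and does not show that a factor binds.

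All 10 genes differed among the 4 WT macrophage types (F test over 12 WT libraries, edgeR), against 52.3% of the 21679 genes tested. The second Aldoa row was tested and not called. Of 60 combinations of a gene and a pair of WT types, 38 were called. The pairs share WT libraries, so they are not independent of each other. In bulk samples, fewer cells of a type and less RNA per cell cannot be told apart. A list of 11 immediate early (rapid-response) genes also differed in summed level among the WT types. It summed to 7952 to 23120 CPM in WT alveolar, 14090 to 28450 CPM in WT Kupffer, 49900 to 57910 CPM in WT microglial and 27820 to 32800 CPM in WT splenic libraries. How far such a response entered the levels of the 10 genes was not tested.

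**Figure D1:**
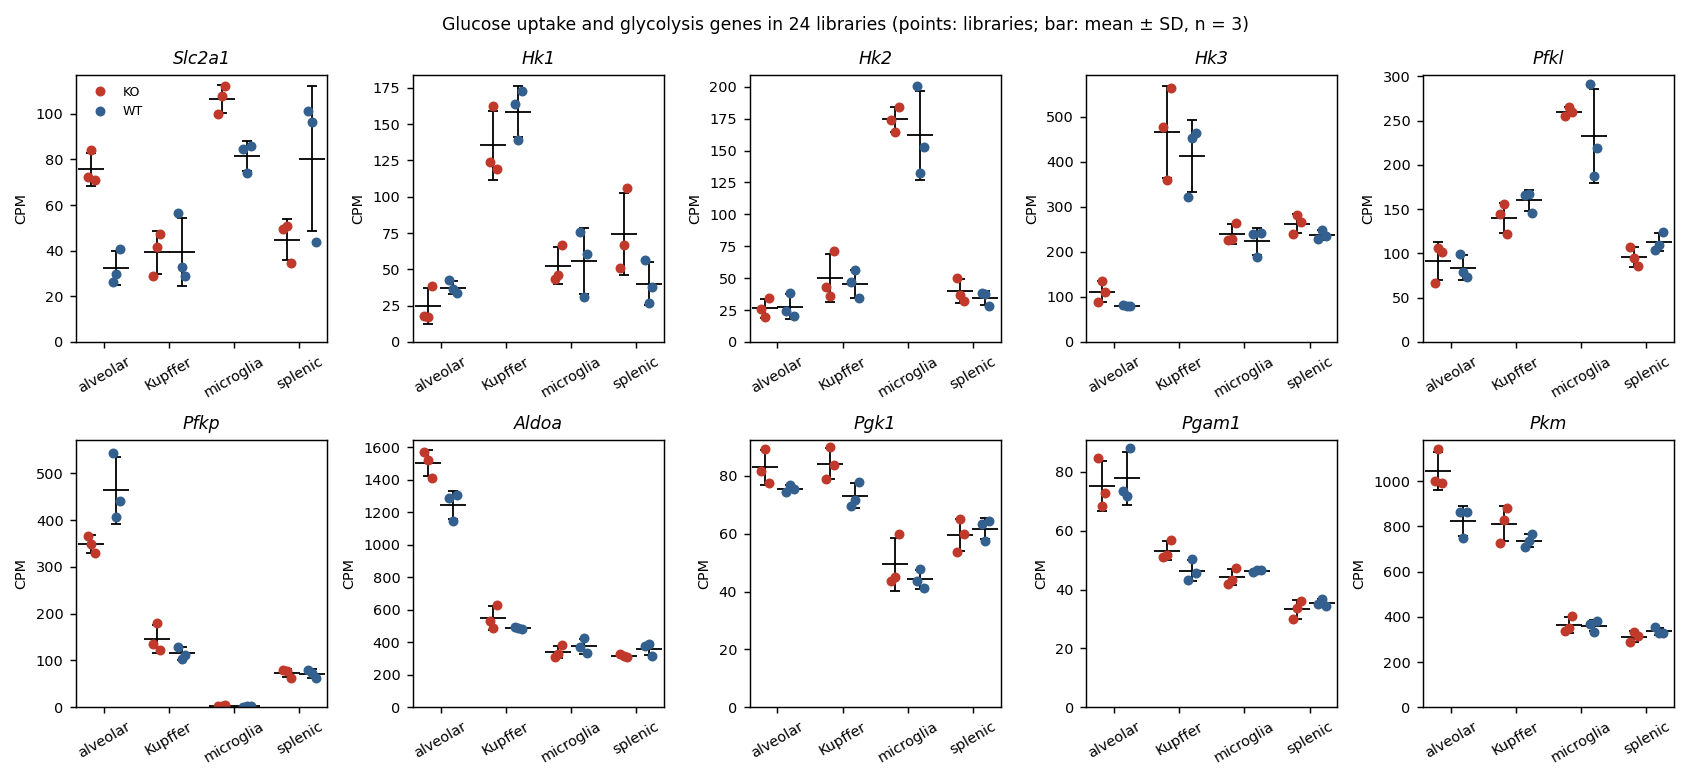
CPM of each of the 10 genes in every library, 1 panel per gene with its own linear axis from 0. Points are libraries and bars mean ± SD (n = 3), with KO to the left of WT in each macrophage type. Pfkp runs from 1.25 CPM in a WT microglial library to 545 CPM in a WT alveolar library, whereas the group means of Pgk1 stay between 44.2 and 84.3 CPM.

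Slc2a1, which encodes the basal glucose carrier of many cell types, was lower in WT alveolar macrophages than in WT microglia and WT splenic macrophages. It had 26.5, 29.7 and 40.8 CPM in the WT alveolar libraries and 56.6, 33.0 and 28.9 CPM in the WT Kupffer libraries. The WT microglial libraries held 84.7, 74.0 and 85.8 CPM, and the WT splenic libraries 101, 96.3 and 43.9 CPM. The alveolar values lay below all microglial and splenic values, whereas 1 Kupffer library reached into the splenic range. The log2 fold of WT alveolar over WT microglia was -1.39 ± 0.32 (SE; adjusted p = 0.00555) and over WT splenic macrophages -1.40 ± 0.32 (adjusted p = 0.00793). Kupffer cells over microglia gave -1.23 ± 0.32 (adjusted p = 0.0133) and over splenic macrophages -1.23 ± 0.32 (adjusted p = 0.0237). Both Kupffer calls were lost when certain single libraries were left out. The call against microglia was lost without WT Kupffer replicate 2 (adjusted p = 0.0569) or 3 (adjusted p = 0.0592). The call against splenic macrophages was lost without WT Kupffer replicate 2 or 3 or WT splenic replicate 1 or 2 (adjusted p 0.0838 to 0.0966). Alveolar and Kupffer levels, and microglial and splenic levels, were not told apart by the test (adjusted p = 0.762 and 0.996).

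Of the hexokinases, Hk2, a mitochondria-bound form that is inducible in many tissues, was highest in WT microglia. It had 201, 132 and 153 CPM in WT microglia, and between 20.3 and 56.0 CPM in the 9 other WT libraries. The microglial libraries thus lay above all others. The log2 fold was -2.59 ± 0.30 for WT alveolar over WT microglia (adjusted p = 4.99e-05), -2.00 ± 0.30 for Kupffer cells over microglia (adjusted p = 0.000387) and 2.20 ± 0.30 for microglia over splenic macrophages (adjusted p = 0.000191). The 3 other types were not told apart in Hk2, except that alveolar macrophages were called lower than Kupffer cells without WT alveolar replicate 2 (adjusted p = 0.0312, against 0.161 with it).

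Hk1, the mitochondria-bound form of most tissues, was highest in WT Kupffer cells. It had 42.7, 36.2 and 33.5 CPM in WT alveolar macrophages, 164, 139 and 173 CPM in WT Kupffer cells, 75.4, 30.7 and 60.8 CPM in WT microglia and 56.4, 26.6 and 37.7 CPM in WT splenic macrophages. Kupffer libraries lay above all others, and the 3 other types overlapped. The log2 fold was -1.96 ± 0.33 for alveolar over Kupffer cells (adjusted p = 0.00115), 1.32 ± 0.33 for Kupffer cells over microglia (adjusted p = 0.00954) and 1.78 ± 0.33 for Kupffer cells over splenic macrophages (adjusted p = 0.00378). Without WT microglial replicate 2, Hk1 was also called higher in microglia than in alveolar macrophages (adjusted p = 0.0141) and in splenic macrophages (adjusted p = 0.0411), against 0.141 and 0.296 with it. Endothelial markers were also highest in Kupffer libraries. The summed level of 7 of them was 3588, 2739 and 3410 CPM in WT Kupffer libraries, against 153 to 158 CPM in WT alveolar, 50.8 to 77.6 CPM in WT microglial and 318 to 359 CPM in WT splenic libraries. Of the 7, 6 were called higher in WT Kupffer cells than in WT alveolar macrophages, 7 than in WT microglia and 6 than in WT splenic macrophages. Of all genes tested, 15.6%, 18.3% and 8.88% were called higher in Kupffer cells in these pairs. A list of 5 hepatocyte markers summed to 121.6 to 289.1 CPM in WT Kupffer libraries and to at most 80.2 CPM in the other WT libraries. The part of these markers in the Kupffer levels of Hk1 and the other genes was not tested.

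Hk3, a hexokinase form found mainly in blood and myeloid cells, was lowest in WT alveolar macrophages. It had 82.9, 79.0 and 80.8 CPM there, 321, 453 and 465 CPM in WT Kupffer cells, 239.7, 189 and 242 CPM in WT microglia and 229, 249 and 234 CPM in WT splenic macrophages. No alveolar library overlapped with another type. The log2 fold was -2.23 ± 0.17 for alveolar over Kupffer cells (adjusted p = 4.53e-06), -1.52 ± 0.17 for alveolar over microglia (adjusted p = 3.43e-05) and -1.64 ± 0.17 for alveolar over splenic macrophages (adjusted p = 3.42e-05). Kupffer cells were higher than microglia (0.71 ± 0.17, adjusted p = 0.00753). Their fold over splenic macrophages was 0.59 ± 0.17 with an adjusted p of 0.0335. That last call was lost without any 1 of 7 WT libraries (2 alveolar, replicates 2 and 3, 2 Kupffer, replicates 2 and 3, and all 3 splenic), with adjusted p from 0.0527 to 0.131.

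Per length, in TPM (length-scaled transcript abundance), Hk3 was the leading hexokinase transcript in every group. It made up 70.9 ± 4.1% of the TPM summed over Hk1, Hk2, Hk3 and Hkdc1 in WT alveolar macrophages, 80.6 ± 3.7% in WT Kupffer cells, 64.6 ± 3.5% in WT microglia and 86.0 ± 2.8% in WT splenic macrophages (SD, n = 3 each). Hk2 made up 28.7 ± 2.6% in WT microglia and 14.9 ± 4.6% or less in the other WT types. Hkdc1 held at most 0.172% in any library. The summed level of these 4 genes was 97.3 TPM in WT alveolar macrophages, 433 TPM in WT Kupffer cells, 298 TPM in WT microglia and 239 TPM in WT splenic macrophages. By counts, without scaling to length, Hk3 still led in every group. Its share was then 55.5% in WT alveolar macrophages, 66.5% in Kupffer cells, 51.1% in microglia and 76.1% in splenic macrophages. Hk2 made up 36.7% of counts in WT microglia. In WT alveolar macrophages Hk1 (25.6%) stood above Hk2 (18.8%) by counts.

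**Figure D2:**
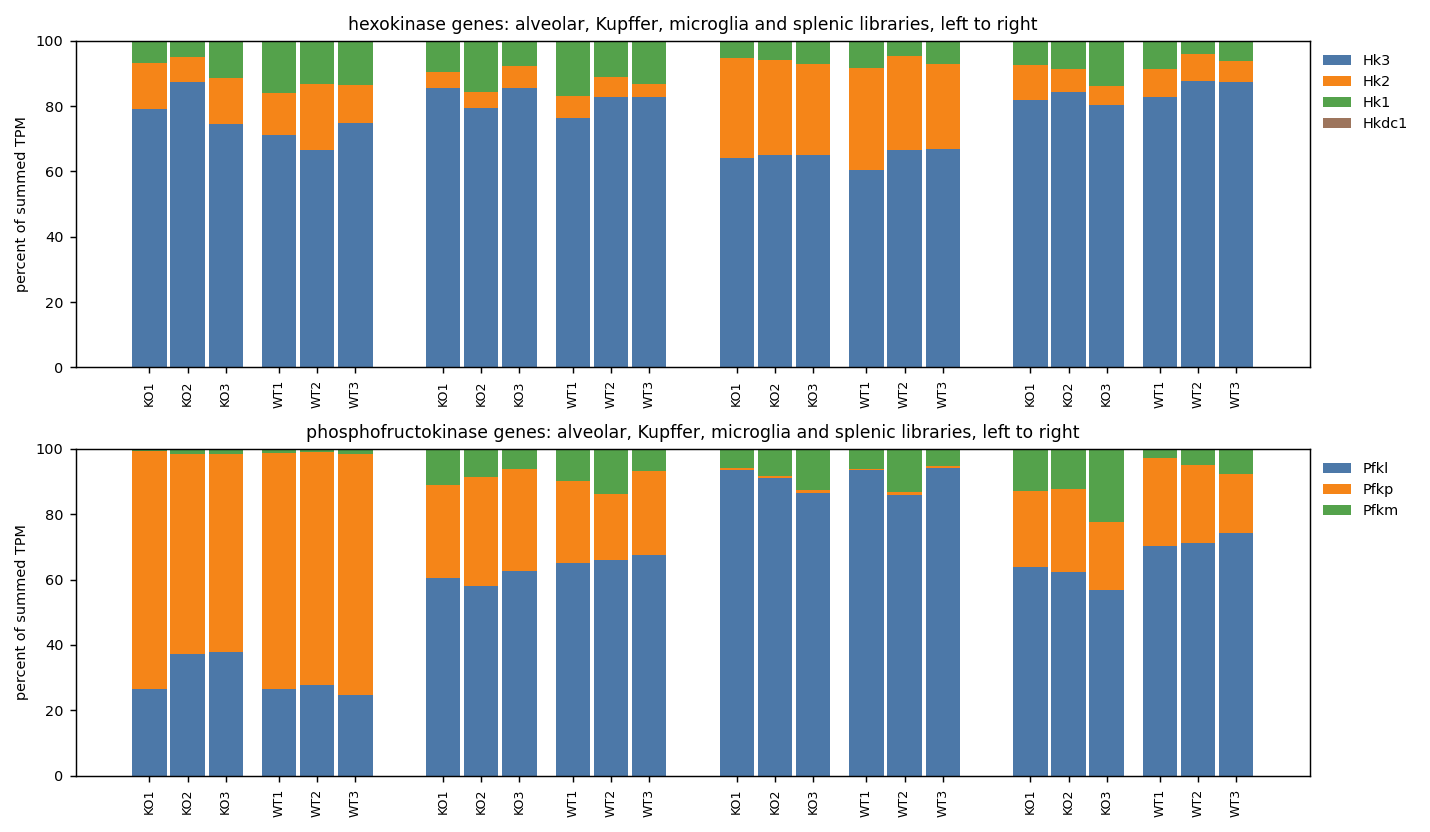
Share of each gene in the summed TPM of its family, in percent, as 1 stacked bar per library, with KO libraries to the left of WT libraries in each macrophage type. Hk3 fills most of every hexokinase bar (Hk1, Hk2, Hk3 and Hkdc1), and Pfkp averages 72.4% of phosphofructokinase TPM in WT alveolar macrophages but 0.552% in WT microglia.

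Of the 10 genes, Pfkp had the widest range. This platelet-type subunit of phosphofructokinase had 545, 407 and 441 CPM in WT alveolar macrophages, 129.9, 104 and 112 CPM in WT Kupffer cells, 1.25, 3.73 and 2.84 CPM in WT microglia and 80.2, 73.9 and 61.6 CPM in WT splenic macrophages. No 2 types overlapped, and the mean of WT alveolar macrophages was 178 times that of WT microglia. The log2 fold was 7.43 ± 0.36 for alveolar over microglia (adjusted p = 6.85e-08) and 2.13 ± 0.28 for alveolar over Kupffer cells (adjusted p = 0.000189). Pfkp was 5.30 ± 0.33 higher on the log2 scale in Kupffer cells than in microglia (adjusted p = 7.02e-07). In microglia it stood at -4.83 ± 0.32 against splenic macrophages (adjusted p = 9.59e-07). Kupffer and splenic levels were not told apart by the test (0.47 ± 0.27, adjusted p = 0.291), although their libraries did not overlap.

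Pfkl, the liver-type subunit, was highest in WT microglia and lowest in WT alveolar macrophages, with 99.8, 79.3 and 72.9 CPM in WT alveolar macrophages, 167, 167 and 146 CPM in WT Kupffer cells, 291, 188 and 219.5 CPM in WT microglia and 104, 109 and 125 CPM in WT splenic macrophages. Every WT microglial library lay above all other WT libraries, and every WT alveolar library below them. In edgeR the log2 fold was -1.53 ± 0.19 for alveolar over microglia (adjusted p = 8.7e-05), -0.81 ± 0.19 for alveolar over Kupffer cells (adjusted p = 0.00851) and 1.01 ± 0.19 for microglia over splenic macrophages (adjusted p = 0.00178). Kupffer cells over microglia gave -0.72 ± 0.19 (adjusted p = 0.0134), a call lost without WT Kupffer replicate 3 (adjusted p = 0.0582) or WT microglial replicate 1 (adjusted p = 0.0581). Alveolar over splenic macrophages gave -0.52 ± 0.19 (adjusted p = 0.0669), which was called without WT alveolar replicate 1 (adjusted p = 0.0488) and without WT microglial replicate 1 (adjusted p = 0.0329) or 2 (adjusted p = 0.0367), and by DESeq2 (adjusted p = 0.0412).

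In TPM, Pfkp made up 72.4 ± 1.4% of the 3 phosphofructokinase genes in WT alveolar macrophages, against 23.8 ± 3.0% in WT Kupffer cells, 0.552 ± 0.328% in WT microglia and 23.1 ± 4.4% in WT splenic macrophages (SD, n = 3 each). Pfkl made up 26.3 ± 1.6% in WT alveolar macrophages, 66.1 ± 1.3% in WT Kupffer cells, 91.3 ± 4.7% in WT microglia and 71.9 ± 2.1% in WT splenic macrophages. The muscle-type gene Pfkm, which is not among the 10, held at most 13.8% in a WT library. The summed level of the 3 genes varied less, with 150.4 TPM in WT alveolar macrophages, 114 TPM in WT Kupffer cells, 120.1 TPM in WT microglia and 74.8 TPM in WT splenic macrophages. The shares depend on scaling to gene length. By counts, Pfkp made up 84.4% in WT alveolar macrophages, 40.0% in Kupffer cells, 1.16% in microglia and 38.2% in splenic macrophages. Pfkl made up 15.3, 55.7, 94.6 and 59.7% in the same order.

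Aldoa, the aldolase of most tissues, was by mean TPM the most abundant of the 10 transcripts in every WT type. It stood highest in WT alveolar macrophages, at 1341 ± 121 TPM (SD, n = 3). It had 1287, 1147 and 1303 CPM there, 492, 485 and 483 CPM in WT Kupffer cells, 369.5, 423 and 331 CPM in WT microglia and 376, 387 and 317 CPM in WT splenic macrophages. The alveolar libraries stood above all others, and the 3 other types were not told apart (adjusted p from 0.200 to 0.909). Alveolar macrophages were higher than Kupffer cells by 1.48 ± 0.12, than microglia by 1.68 ± 0.12 and than splenic macrophages by 1.70 ± 0.12 on the log2 scale (adjusted p = 5.24e-06, 9.67e-07 and 1.74e-06). Up to 24.6 CPM fell on 4 pseudogenes named after Aldoa, and reads of near-identical copies cannot be told apart.

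Pkm, whose product makes pyruvate and ATP, was higher in the lung and liver types than in the brain and spleen types. It had 862, 749 and 862 CPM in WT alveolar macrophages, 708, 736 and 765 CPM in WT Kupffer cells, 369, 332 and 381 CPM in WT microglia and 354, 329 and 328 CPM in WT splenic macrophages. Alveolar and Kupffer libraries overlapped with each other and lay above every microglial and splenic library. On the log2 scale the difference was 1.14 ± 0.11 for alveolar over microglia (adjusted p = 8.8e-06) and 0.92 ± 0.11 for Kupffer cells over splenic macrophages (adjusted p = 0.000189). Alveolar over Kupffer cells gave 0.28 ± 0.11 (adjusted p = 0.0686), which was called without WT microglial replicate 2 (adjusted p = 0.0319) and by DESeq2 (adjusted p = 0.0278). Splice forms of Pkm cannot be separated in a gene count.

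Pgam1, the mutase that moves the phosphate within phosphoglycerate, was highest in WT alveolar macrophages, with 73.5, 71.8 and 88.0 CPM, against 43.3 to 50.3 CPM in WT Kupffer cells, 46.0 to 46.7 CPM in WT microglia and 34.3 to 36.9 CPM in WT splenic macrophages. The alveolar libraries lay above all others. Alveolar macrophages were called higher in each of their 3 pairs, by 0.86 ± 0.12 over Kupffer cells, 0.69 ± 0.12 over microglia and 1.04 ± 0.12 over splenic macrophages (log2; adjusted p = 0.000303, 0.000904 and 7.92e-05). The fold of microglia over splenic macrophages, 0.35 ± 0.12 (adjusted p = 0.041), was called in only 3 of 16 alternatives. Of the 12 WT libraries, only leaving out microglial replicate 2 kept it, and without any other the adjusted p was 0.0563 to 0.139.

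Pgk1, the X-linked kinase that makes the first ATP of the pathway, had the narrowest range. Its WT means were 75.6 ± 1.2 CPM in alveolar macrophages, 73.1 ± 4.3 CPM in Kupffer cells, 44.2 ± 3.4 CPM in microglia and 61.8 ± 3.7 CPM in splenic macrophages (SD, n = 3 each). Microglia lay below every other WT library. The fitted log2 fold came to 0.72 ± 0.11 for alveolar over microglia (adjusted p = 0.000371), 0.55 ± 0.11 for Kupffer cells over microglia (adjusted p = 0.00293) and -0.52 ± 0.11 for microglia over splenic macrophages (adjusted p = 0.00388). The other 3 pairs were not called.

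Counted by pair, 6 of the 10 genes were called for WT alveolar against WT Kupffer cells (3 higher and 3 lower in alveolar), against 28% of all genes tested (12.4% higher, 15.6% lower). For WT alveolar against WT microglia the count was 9 (5 higher, 4 lower), against 39.8% (20.4% higher, 19.4% lower). For WT alveolar against WT splenic macrophages it was 6 (4 higher, 2 lower), against 26.9% (12.8% higher, 14.2% lower). Kupffer cells differed from microglia in 8 (5 higher, 3 lower), against 32.4% (18.3% higher, 14.1% lower), and from splenic macrophages in 4 (3 higher, 1 lower), against 16.4% (8.88% higher, 7.53% lower). Microglia differed from splenic macrophages in 5 (3 higher, 2 lower), against 34.9% (16.4% higher, 18.6% lower). In both pairs of WT alveolar macrophages with microglia and splenic macrophages, Aldoa, Pgam1, Pkm and Pfkp were higher in alveolar macrophages, and Slc2a1 and Hk3 were lower.

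**Figure D3:**
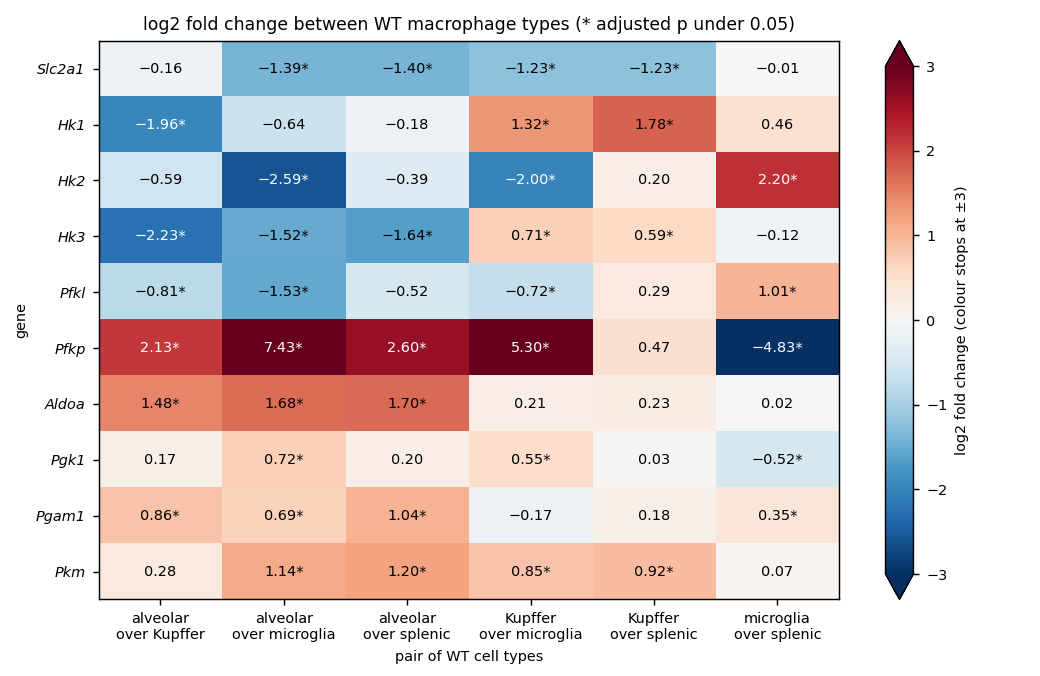
Heat map of the log2 fold of each gene (rows) for the 6 pairs of WT macrophage types (columns), first over second, with the colour scale stopping at 3 in either direction and an asterisk where the gene is called. Pfkp spans from -4.83 for microglia over splenic macrophages to 7.43 for alveolar macrophages over microglia.

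The other glycolytic isozymes followed their own order. Aldoc, a second aldolase, had 73.5 ± 5.7 TPM in WT alveolar macrophages, against 5.70 ± 2.79 TPM in WT Kupffer cells, 1.35 ± 0.17 TPM in WT microglia and 2.69 ± 0.68 TPM in WT splenic macrophages. It was called higher in alveolar macrophages in all 3 pairs, with a log2 fold of 5.72 ± 0.43 over microglia (adjusted p = 1.68e-06). Pgam2 had 2.17 to 24.1 TPM over the WT libraries, and Pklr at most 2.56 TPM. Pgk2 had at most 0.0740 TPM. Gapdh, the enzyme between aldolase and Pgk1, was called higher in WT alveolar macrophages than in WT Kupffer cells (0.87 ± 0.17, adjusted p = 0.00318), microglia (1.20 ± 0.18, adjusted p = 0.000257) and splenic macrophages (1.30 ± 0.18, adjusted p = 0.000225). Of lists read in the same F test, 9 of 12 tested other glycolysis enzymes, 8 of 10 other glucose transporters, 7 of 10 genes controlling flux, 14 of 15 pyruvate and lactate genes, 7 of 8 pentose phosphate genes, 13 of 17 regulators and 13 of 15 hypoxia response targets were called, against 52.3% of all genes tested. Hif1a, the oxygen-regulated subunit, had 89.6 CPM in WT alveolar macrophages, 81.1 CPM in WT Kupffer cells, 89.8 CPM in WT microglia and 140.0 CPM in WT splenic macrophages. Txnip, an inhibitor of glucose uptake, had 349.5 CPM in WT alveolar macrophages, 710.3 CPM in WT Kupffer cells, 2137 CPM in WT microglia and 255 CPM in WT splenic macrophages.

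The genotype was then compared within each macrophage type. None of the 10 genes was called between KO and WT in any type. Among all tested genes, 0.317% were called in alveolar macrophages, 0.184% above and 0.132% below WT, and 0.0629% in Kupffer cells, all of them lower in KO. The share was 0.747% in splenic macrophages, where 0.129% stood higher and 0.618% lower in KO, and 0% in microglia. In microglia 794 genes had an unadjusted p under 0.05, and DESeq2 called 93. At an unadjusted p under 0.05 there were 5 of the 10 genes in alveolar macrophages, against 12.5% of all genes tested, 0 in Kupffer cells, against 6.94%, 1 in microglia, against 4.44%, and 2 in splenic macrophages, against 11.7%. DESeq2 called 2 of the 10 in alveolar macrophages and none in the other types. With 3 libraries against 3, the smallest p that an exact two-sided permutation test can give is 0.1.

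**Figure D4:**
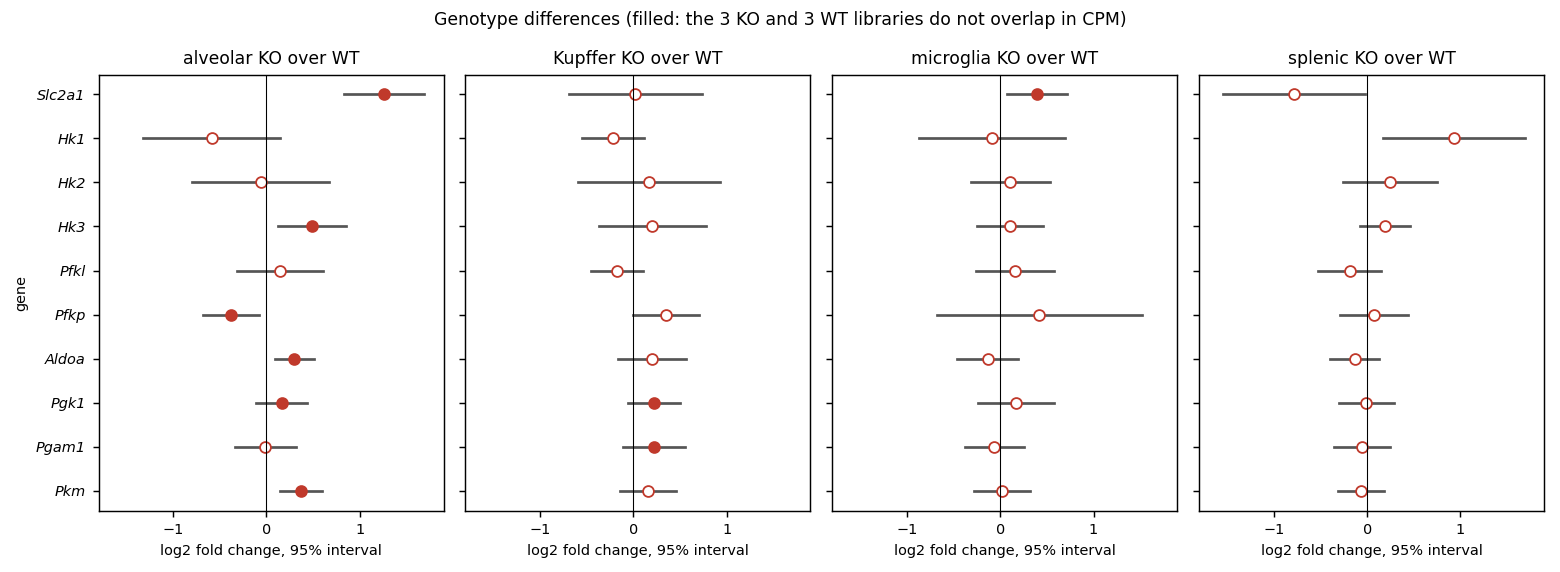
Log2 fold of KO over WT for each of the 10 genes, 1 panel per macrophage type, with the 95% interval from edgeR as a line. Filled points mark genes whose KO and WT libraries do not overlap in CPM. No gene is called, and Slc2a1 stands highest in alveolar macrophages (1.26) and lowest in splenic macrophages (-0.79).

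Slc2a1 had the largest genotype difference of the 10. It had 72.2, 84.0 and 70.9 CPM in KO alveolar macrophages, against 26.5, 29.7 and 40.8 CPM in WT alveolar macrophages. Every KO library lay above every WT library. The test gave a log2 fold of 1.26 ± 0.18 (95% interval 0.83 to 1.69), with an adjusted p of 0.0582, above the threshold. It was called without the filter on low counts (adjusted p = 0.0104), with DESeq2 (adjusted p = 3.16e-08) and in the fit of all 24 libraries (adjusted p = 0.0317). Leaving out any 1 alveolar library kept it uncalled, with adjusted p from 0.0573 to 0.274, and the log2 fold stayed between 1.13 and 1.44 over all alternatives. Among 5 glucose transporter genes (Slc2a1, Slc2a3, Slc2a6, Slc2a8 and Slc2a9), its share of summed TPM was 42.6, 39.7 and 39.9% in KO and 26.6, 33.1 and 34.4% in WT alveolar libraries, which did not overlap either. The summed TPM of the 5 was 145, 184 and 153 in KO and 92.6, 78.6 and 104 in WT alveolar libraries.

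Slc2a1 in microglia had 99.7, 108 and 112 CPM in KO libraries, against 84.7, 74.0 and 85.8 CPM in WT libraries, with no overlap (log2 fold 0.39 ± 0.14, adjusted p = 0.987). In Kupffer cells it had 28.9, 41.7 and 47.4 CPM in KO libraries, against 56.6, 33.0 and 28.9 CPM in WT libraries, which overlapped (0.02 ± 0.30, interval -0.69 to 0.73). In splenic macrophages it had 49.3, 50.6 and 34.7 CPM in KO libraries, against 101, 96.3 and 43.9 CPM in WT libraries. There the third WT library lay within the KO range. In edgeR the log2 fold was -0.79 ± 0.32 (interval -1.55 to -0.03, adjusted p = 0.408), and without WT splenic replicate 3 it was -1.07 (adjusted p = 0.101). Whether the genotype effect on Slc2a1 differed between the types was tested as an interaction, with an adjusted p of 0.0838, while 0.524% of 24030 genes were called. That interaction was called without WT splenic replicate 3 (adjusted p = 0.0128), without the low-count filter (adjusted p = 0.0465) and with DESeq2 (adjusted p = 0.00153).

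The summed CPM of markers of other cells differed between KO and WT alveolar libraries. Such a sum follows its highest markers, so it does not show that each marker moved. Of all genes tested there, 0.317% were called. The summed CPM of 8 neutrophil markers was 562 to 726 in KO and 214 to 395 in WT alveolar libraries, with 1 of the 8 called. That of 6 monocyte markers was 384 to 664 in KO and 1100 to 1572 in WT libraries, with none of the 6 called. For 7 B cell markers it was 6.41 to 8.90 in KO and 77.2 to 163 in WT libraries, with 4 of 7 called. For 5 airway epithelium markers it was 588 to 659 in KO and 272 to 461 in WT libraries, with 1 of 5 called. Their part in the values of the 10 genes was not tested.

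No hexokinase gene was called between genotypes. In alveolar macrophages Hk3 had 88.5, 135 and 110.1 CPM in KO libraries, against 82.9, 79.0 and 80.8 CPM in WT libraries, without overlap (0.49 ± 0.16, interval 0.12 to 0.85, adjusted p = 0.265). Hk1 had 17.8, 17.4 and 38.8 CPM in KO alveolar libraries, against 42.7, 36.2 and 33.5 CPM in WT alveolar libraries, where the third KO library fell in the WT range (-0.59 ± 0.31, adjusted p = 0.518). As a share of the TPM summed over Hk1, Hk2, Hk3 and Hkdc1, Hk1 held 6.87, 4.85 and 11.3% in KO and 15.8, 13.2 and 13.4% in WT alveolar libraries, which did not overlap. In splenic macrophages Hk1 had 51.1, 66.8 and 106 CPM in KO libraries, against 56.4, 26.6 and 37.7 CPM in WT libraries. The groups overlapped through 1 library of each (0.93 ± 0.32, interval 0.17 to 1.69, adjusted p = 0.325). The interaction test of Hk1 gave an adjusted p of 0.393. Hk2 had log2 folds from -0.06 to 0.24 and overlapping groups in all 4 types.

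Neither phosphofructokinase gene was called. Pfkp had 367, 349.7 and 329 CPM in KO alveolar libraries, against 545, 407 and 441 CPM in WT alveolar libraries. The KO libraries lay below the WT libraries (-0.38 ± 0.13, interval -0.68 to -0.08, adjusted p = 0.286). In Kupffer cells it had 136, 180.1 and 122 CPM in KO libraries, against 129.9, 104 and 112 CPM in WT libraries, which overlapped (0.35 ± 0.15, adjusted p = 0.718). Its share of phosphofructokinase TPM in Kupffer cells was 28.5, 33.4 and 31.3% in KO libraries and 25.2, 20.4 and 25.7% in WT libraries, without overlap. There the Pfkl share was 60.5, 57.9 and 62.6% in KO and 65.0, 65.9 and 67.6% in WT libraries, also without overlap. Shares within a family are tied to each other. The KO and WT shares given in the text are ones without overlap, whereas most transporter, hexokinase and phosphofructokinase shares overlapped between genotypes. Pfkl showed log2 folds of 0.15 in alveolar macrophages, -0.18 in Kupffer cells, 0.16 in microglia and -0.19 in splenic macrophages, all with overlapping groups. In splenic macrophages its share was 63.8, 62.4 and 56.9% in KO libraries and 70.2, 71.2 and 74.2% in WT libraries, and that of Pfkm was 12.8, 12.2 and 22.2% in KO libraries and 2.85, 4.85 and 7.53% in WT libraries. Pfkm itself had a log2 fold of 1.62 ± 0.44 there (10.8, 9.36 and 16.7 CPM in KO, 2.12, 3.73 and 6.33 CPM in WT splenic libraries, adjusted p = 0.211). It was named here after its values were seen.

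In splenic macrophages, 7 erythroid markers summed to 16120, 15830 and 26330 CPM in KO libraries, against 7192, 5494 and 21690 CPM in WT libraries, with none of the 7 called. Library by library, the WT splenic library with the most erythroid marker reads, replicate 3, was also the one with the lowest Slc2a1. The 8 neutrophil markers summed to 471 to 594 CPM in KO and 148 to 204 CPM in WT splenic libraries, with 3 of 8 called, and the 7 B cell markers to 62.9 to 114 CPM in KO and 1095 to 1600 CPM in WT libraries, with all 7 called. Among all genes tested in splenic macrophages, 0.747% were called. The part of these markers in the values of the 10 genes was not tested. Their part in the values of the 10 genes was not tested.

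Of the lower glycolysis genes, Aldoa had 1570, 1519 and 1413 CPM in KO alveolar libraries, against 1287, 1147 and 1303 CPM in WT alveolar libraries (0.30 ± 0.09, interval 0.09 to 0.51, adjusted p = 0.232). Pkm had 1001, 1140 and 991.5 CPM in KO alveolar libraries, against 862, 749 and 862 CPM in WT alveolar libraries (0.37 ± 0.10, interval 0.15 to 0.60, adjusted p = 0.172). In neither gene did the groups overlap, and DESeq2 called Pkm (adjusted p = 0.0156). Gapdh likewise had 1500, 1413 and 1305 CPM in KO and 989, 851 and 1208 CPM in WT alveolar libraries (0.51 ± 0.13, adjusted p = 0.180). Pgk1 had log2 folds of 0.16 in alveolar macrophages, 0.22 in Kupffer cells, 0.17 in microglia and -0.01 in splenic macrophages. Pgam1 had log2 folds of -0.01 in alveolar macrophages, 0.22 in Kupffer cells, -0.06 in microglia and -0.05 in splenic macrophages.

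By non-overlap of CPM, 6 of the 10 genes separated KO from WT in alveolar macrophages (Slc2a1, Hk3, Aldoa, Pgk1 and Pkm higher and Pfkp lower in KO), against 19.4% of all genes tested there. In Kupffer cells 2 did (Pgk1 and Pgam1, higher in KO), against 12.9%, in microglia 1 did (Slc2a1, higher in KO), against 11%, and in splenic macrophages 0 did, against 20%. The unit changed some of these. In TPM, Hk3 and Pgk1 overlapped in alveolar macrophages (lowest KO 71.96 and 104.4, highest WT 73.45 and 108.2). Pgk1 also separated in microglia in TPM (lowest KO 65.09, highest WT 63.89). The sum of the 10 genes was 2719, 2838 and 2586 TPM in KO alveolar libraries, against 2547, 2138 and 2401 TPM in WT alveolar libraries. It was 1832, 1828 and 2120 TPM in KO Kupffer libraries, against 1701, 1763 and 1734 TPM in WT Kupffer libraries. In both types every KO library lay above every WT library. In CPM the lowest KO Kupffer sum was 2340 and the highest WT Kupffer sum 2330. Aldoa and Pkm were the largest parts of these sums. Their WT means were 1341 and 517 TPM in alveolar macrophages and 524 and 461 TPM in Kupffer cells. The mean TPM of Pfkp, Pgam1, Hk1 and Hk2 was lower in KO than in WT alveolar libraries, and that of the other genes was higher. The sum averaged 1331 TPM in KO and 1246 TPM in WT microglia, and 1058 TPM in KO and 1140 TPM in WT splenic macrophages, where the libraries overlapped. The median log2 fold over the tested rows of the 10 genes was 0.16 in alveolar macrophages, 0.20 in Kupffer cells, 0.11 in microglia and -0.03 in splenic macrophages, where the second Aldoa row was not tested. In Kupffer cells, 7 B cell markers summed to 49.6 to 119.7 CPM in KO and 630 to 1037 CPM in WT libraries. The monocyte, endothelial and red pulp marker sums there overlapped between genotypes. What these markers add to the Kupffer values was not tested.

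Genes downstream of the pathway did pass the test in alveolar macrophages. Pdk4, a kinase that shuts off pyruvate dehydrogenase, had 113, 75.0 and 108 CPM in KO alveolar libraries, against 19.4, 12.8 and 25.8 CPM in WT alveolar libraries (log2 fold 2.39 ± 0.27, adjusted p = 0.0258). Slc16a1, a lactate and pyruvate carrier, had 5.21, 5.17 and 6.61 CPM in KO and 33.7, 31.9 and 22.3 CPM in WT alveolar libraries (-2.35 ± 0.23, adjusted p = 0.0233). They were 2 of the 15 pyruvate and lactate genes, 1 higher and 1 lower, against 0.317% of all genes tested there. Of 17 regulators of glycolytic genes, Akt2, a kinase of insulin signalling, was higher (112, 115 and 114 CPM in KO, 65.6, 49.3 and 67.0 CPM in WT, 0.94 ± 0.13, adjusted p = 0.0432). Myc, a transcription factor known to raise glycolytic genes, was lower (88.5, 90.9 and 118 CPM in KO, 238, 202 and 209.6 CPM in WT, -1.10 ± 0.13, adjusted p = 0.0263). All 4 stayed called with another scaling (RLE), without the low-count filter and with DESeq2 (adjusted p at most 0.0471). With the replicate number as a block none of the 4 was called. On leaving out a library, these 4 calls depended on the full set of 6 alveolar libraries. Pdk4, Akt2 and Myc lost the call without any 1 of the 6 (adjusted p 0.051 to 0.183, 0.1 to 0.183 and 0.0573 to 0.181), and Slc16a1 kept it only without WT alveolar replicate 3 (adjusted p = 0.0305, and up to 0.152 without another library), while each direction was the same. Pdk4 also lost it in the fit of all 24 libraries (adjusted p = 0.211). None was called among 9 tested other glycolysis enzymes, 6 other glucose transporters, 9 genes controlling flux, 8 pentose phosphate genes and 15 hypoxia response targets in alveolar macrophages. With 0.317% of all genes called there, lists this short would hold few or no calls. No gene of these lists was called in Kupffer cells, microglia or splenic macrophages, against 0.0629%, 0% and 0.747% of all genes tested. Slc16a1 had 73.0, 120.1 and 132 CPM in KO and 58.0, 49.7 and 71.5 CPM in WT splenic libraries (0.90 ± 0.24, adjusted p = 0.210). Slc16a1 and Akt2 were called in the interaction test. Hif1a and Txnip had log2 folds of 0.09 and -0.20 in alveolar macrophages, not called.

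Over the 8 group means (log2 CPM), Hk2 ran opposite to Pfkp (Pearson r = -0.982) and together with Pfkl (r = 0.962), and Pfkl ran opposite to Pfkp (r = -0.948). Pfkp ran with Pgk1 (r = 0.958) and Aldoa with Pgam1 (r = 0.943). These are descriptions over 8 points, in which KO and WT of a type lie close together. Among 9143 genes of at least 10 CPM, the genes most like Pfkp were Dnase1l1 (r = 0.999) and Myof (r = 0.998), and those most like Hk2 were Cst3 (r = 0.996) and Stard3 (r = 0.995). Those most like Slc2a1 were Mtx1 (r = 0.981) and Rtn4ip1 (r = 0.975), and those most like Hk3 were Tapbpl (r = 0.991) and Batf3 (r = 0.988). For Aldoa they were Sh3bgrl3 (r = 0.996) and Acaa1b (r = 0.995), for Pkm Gm6560 (r = 0.99) and Emp3 (r = 0.988), and for Hk1 Rcan1 (r = 0.982) and Arhgap29 (r = 0.968). For Pfkl they were Anapc7 and Tpst2 (both r = 0.991), for Pgam1 Cers5 (r = 0.986) and Cbfb (r = 0.982), and for Pgk1 Atp6v1a (r = 0.989) and Eif4b (r = 0.98).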

How the data were processed

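Bulk RNA sequencing of 24 mouse libraries was read for the 10 glycolysis genes. The authors deposited gene counts, which are whole numbers and not normalized, and CPM (counts scaled to the library total), which matched CPM recomputed from the counts to within 4.73e-11. The authors also deposited TPM, which equalled counts over a fixed length per gene, rescaled per library; for a few of these deposited columns, treated as a score, repeated rows took the column sum above that of the others. Reads were placed on mm10, and DRAGEN, STAR, Subread, featureCounts and Salmon are named, per the submitters' processing notes. Rules for shared reads are not given in the sources used. Of 55774 rows, 287 repeated a gene with identical values and were dropped.

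The library kit was SMARTer Ultra Low, per the labels. Samples were grouped by their labelled cell type and genotype. KO was set against WT within each type on the deposited counts, by edgeR 4.0.16 (quasi-likelihood F test, two-sided, R 4.3.3, TMM, filterByExpr with a minimum count of 10, Benjamini-Hochberg adjustment over all genes tested). Pairs of WT types came from 1 fit of the 12 WT libraries, and the interaction from a fit of all 24. Each ± after a log2 fold is a standard error. Log2 CPM for likeness used a prior count of 2. Alternatives were RLE scaling, no filter on low counts, DESeq2 1.42.0, the replicate number as a block, a fit of all 24 libraries and leaving out each library. For hexokinase and phosphofructokinase shares, counts were also read in place of TPM. The tests were checked on simulated counts.

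Total counts per library differed by at most 1.31 times. Replicates of a group differed by more than sampling noise in every pair (smallest chi-square per degree of freedom 29.4). Reads carried no molecular identifiers. TMM factors ran from 0.89 to 1.144, so ratios of raw CPM differ from fitted folds. The members and lists were chosen with earlier results of these data known. Some other genes of these lists are not reported here. Genes outside the 10 were named where their list's member was called, with at most 4 per list, plus Gapdh, Hif1a, Txnip, Zeb2 and isozymes of the same steps. For likeness, the 2 genes with the highest r per member were named. Coordinates are 1-based, from GENCODE vM21, and promoter sequences are from RefSeq.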

Additional observations from a re-analysis of the deposited data

How the results depend on the processing

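All values here are for the alternatives run. In alveolar macrophages, 55 genes were called between KO and WT, against 163 without the low-count filter, 922 with DESeq2, 0 with the replicate block, 297 in the fit of all 24 libraries and 0 to 29 when 1 library was left out. Of the 10 genes, none was called there, against 1 without the filter, 2 with DESeq2 and 1 in the fit of all libraries. In Kupffer cells 12 genes were called, against 76 without the filter, 413 with DESeq2, 0 with the block, 48 in the fit of all libraries and 0 to 15 on leaving out a library. In microglia 0 were called, against 13 without the filter, 93 with DESeq2, 19 in the fit of all libraries and 0 to 1 on leaving out a library. In splenic macrophages 133 were called, against 330 without the filter, 903 with DESeq2, 10 with the block and 18 to 90 on leaving out a library. The interaction was called for 126 genes, against 945 with DESeq2, 61 with the block and 74 to 159 on leaving out a library. For the 10 genes it was called in 1 without the filter, in 1 with DESeq2 and in 0 to 1 on leaving out a library. For WT Kupffer against WT splenic macrophages, 4 of the 10 genes were called, and 2 to 4 on leaving out a library. Same-numbered libraries of KO and WT deviated with correlations of -0.04 to 0.036, and those of 2 cell types of a genotype with -0.02 to 0.073. These correlations over all genes cannot show whether equal numbers stand for a shared mouse or day. A call lost under the block is therefore read neither as a weaker effect nor as an unchanged one.

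Only uncalled folds near 0 changed sign, nearly all when 1 library was left out. Their lowest and highest log2 folds are given over all alternatives. For KO over WT in alveolar macrophages they were -0.252 to 0.306 for Hk2 and -0.129 to 0.072 for Pgam1. In Kupffer cells they were -0.226 to 0.388 for Hk2 and -0.183 to 0.357 for Slc2a1. In microglia they were -0.395 to 0.217 for Hk1, -0.035 to 0.316 for Hk2, -0.022 to 0.177 for Hk3 and -0.075 to 0.081 for Pkm. In splenic macrophages they were -0.009 to 0.2 for Pfkp, -0.089 to 0.015 for Pgam1 and -0.106 to 0.058 for Pgk1, and Pgk1 was 0.001 with RLE scaling and with DESeq2. Among WT pairs, Slc2a1 ran from -0.344 to 0.171 for alveolar over Kupffer cells, Hk1 from -0.392 to 0.102 for alveolar over splenic macrophages and Pgk1 from -0.016 to 0.081 for Kupffer cells over splenic macrophages. For microglia over splenic macrophages, Aldoa ran from -0.059 to 0.097, Hk3 from -0.204 to 0.008 and Slc2a1 from -0.301 to 0.162, and Slc2a1 was 0.026 with RLE and with DESeq2 and 0.027 with the replicate block. The cause was not tested. Of the 38 calls of a gene in a WT pair, 5 were lost in at least 1 alternative, and 5 uncalled combinations were called in at least 1. With counts in place of TPM, 46 group means of hexokinase and phosphofructokinase shares moved by at least their SD between libraries. With 3 libraries a group, the intervals of uncalled folds set which differences were detectable.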
